A study of Mus musculus with 6 samples.

Results

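The genes described here are amino acid and neurotransmitter transporters of the solute carrier families Slc1, Slc6, Slc7, Slc17, Slc32 and Slc38 in KP1, a mouse small cell lung cancer cell line. A gene belonged to the set when its symbol on the array's annotation was 1 of these family names followed by a plain member number. Slc1a2, Slc1a3 and Slc6a11 were left out by that rule. This gave 57 genes of the 22180 measured with a probe set of their own, and all 57 were tested. Slc6a9 was carried only by a probe set with several gene symbols and was not analysed here. Affymetrix Mouse Gene 2.0 ST arrays measured total RNA from 3 samples of cells transfected with an empty ires-GFP vector (control) and 3 samples transfected with Notch1-ICD-ires-GFP (N1ICD). Both groups came from the same line, derived from a mouse model that lacks Rb, p53 and p130, and both were sorted for GFP 48 hours after transfection. Notch1-ICD is the intracellular domain of the Notch1 receptor, the part that enters the nucleus and acts with the DNA-binding protein RBPJ. Replicates are biological replicates of this 1 cell line, per the labels, and precision is limited by having 6 arrays.

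Most of these carriers move amino acids and their derivatives across the plasma membrane or the membranes of vesicles and lysosomes. Slc1, Slc6 and Slc38 proteins mostly use the sodium gradient. Many Slc7 proteins are exchangers that need a heavy chain such as Slc3a2 to reach the membrane. Slc32a1 and some Slc17 proteins fill vesicles or empty lysosomes, while Slc17a1 to Slc17a4 carry phosphate and urate. In neuroendocrine cells the set includes both the housekeeping supply of amino acids for growth and the carriers that clear or package neurotransmitters. Shortage of amino acids is sensed through the transcription factor ATF4, which acts on several Slc7, Slc1 and Slc38 genes, and through the growth kinase mTORC1.

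Setting N1ICD against control shows which of these genes differ when Notch1 is active. Notch1 itself rose from 6.17 ± 0.19 (SD, n = 3) to 7.76 ± 0.29 in log2 signal and the Notch target Hes1 from 6.12 ± 0.16 to 9.58 ± 0.06, the direction the labels call for. Arrays correlated at 0.991 to 0.994 within a group and 0.980 to 0.984 between groups over all genes. Of the 57 transporters 2 rose and 6 fell (limma, adjusted p under 0.05), while 3.82% of all genes tested rose, 3.27% fell and 7.10% did either. In RNA from a cell population, fewer cells that express a gene and less RNA of it per cell cannot be told apart. The 2 rises make 3.51% of the set and the 6 falls 10.5%. The median difference was -0.02 for the set and -0.02 for all genes. A log2 difference of at least 0.5 in size was reached by 11 members, 9 of them lower in N1ICD, and by 7.48% of all genes. The 3 arrays of N1ICD lay below the 3 of control for 14 members, against 15.0% of all genes, and above them for 4 members, against 11.1%. Without N1ICD replicate 2 the counts were 0 rises and 2 falls, and without control replicate 3 they were 1 and 3. There was 1 rise without control replicate 2 and without N1ICD replicate 3.

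**Figure D1:**
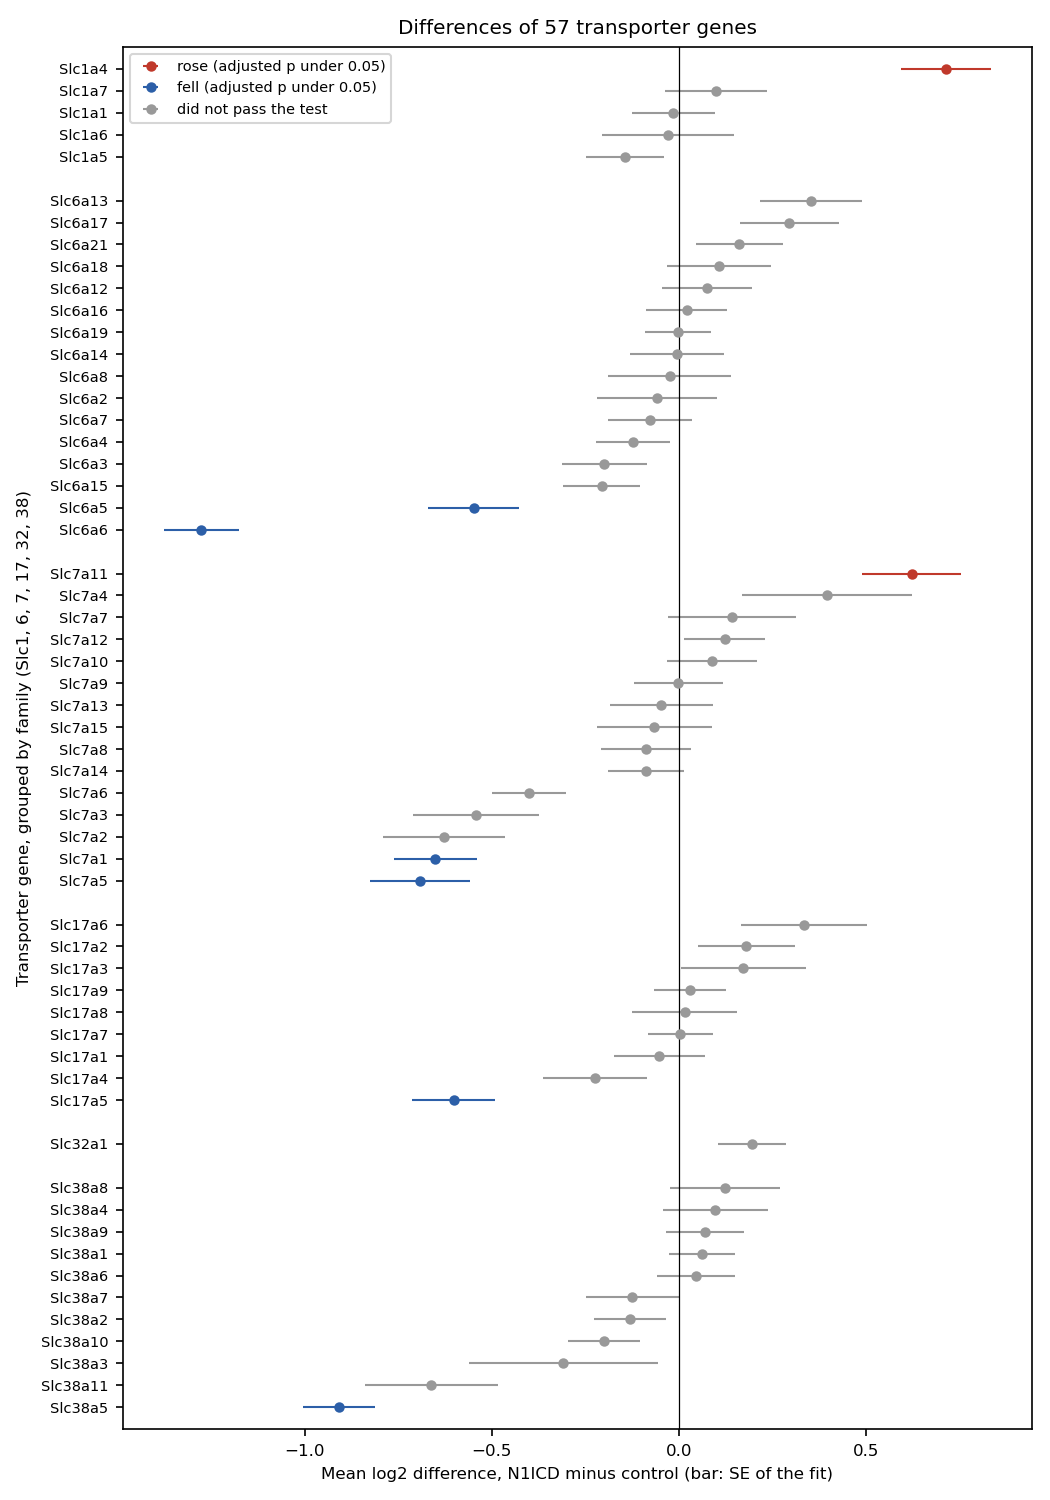
Mean log2 difference (N1ICD minus control, horizontal axis) of each of the 57 transporter genes, grouped by family, with the SE of the fit as a bar. Red points rose, blue points fell and grey points did not pass the test. The lowest value is Slc6a6 at -1.28 and the highest Slc1a4 at 0.71.

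Calls were fewer at low signal, among all genes as among these. The median log2 signal per array lay between 6.14 and 6.24, and 34 members had a mean signal at or below the highest of these medians. Of those 34, 2 fell and 0 rose by limma, and 2.69% of all genes in that range changed. Of the 23 members above every array median, 2 rose and 4 fell (8.70% and 17.4%), beside 5.92% and 5.67% of all genes at that level. Background was not measured, so a dim member may not be expressed at all.

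The largest difference was in Slc6a6, the taurine transporter, which carries taurine and beta-alanine into cells. Its log2 signal was 10.43, 10.46 and 10.36 in control replicates 1, 2 and 3 and 9.24, 9.01 and 9.17 in N1ICD replicates 1, 2 and 3. The groups were far apart, with SDs of 0.05 in control and 0.12 in N1ICD. Slc6a6 fell 2.42-fold (log2 difference -1.28 ± 0.10 SE, limma adjusted p = 0.000173). Slc38a5, a carrier of glutamine, histidine and glycine, read 6.35, 6.45 and 6.50 in control and 5.46, 5.60 and 5.52 in N1ICD. It fell 1.88-fold (-0.91 ± 0.10, limma adjusted p = 0.000914), from just above the array medians to below them. Slc6a6 and Slc38a5 kept their calls without any 1 array.

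Among the heteromeric exchangers, Slc7a5 encodes LAT1, which brings leucine and other large neutral amino acids into cells. Its log2 signal was 11.24, 11.02 and 11.34 in control and 10.61, 10.29 and 10.62 in N1ICD. No N1ICD array reached the lowest control array, and Slc7a5 fell 1.61-fold (-0.69 ± 0.13, limma adjusted p = 0.0191). Its call was lost without control replicates 1 or 3 or N1ICD replicate 2 (adjusted p up to 0.0714). Slc3a2, the heavy chain that LAT1 needs, read 10.84, 10.77 and 10.96 in control and 10.79, 10.77 and 10.85 in N1ICD, so the groups overlapped. Its difference was -0.05 ± 0.09 with a 95% interval from -0.27 to 0.16 (limma adjusted p = 0.819), while that of Slc7a5 ran from -0.997 to -0.385. The difference between these genes was not tested. Slc7a6, another partner of Slc3a2 that exchanges cationic for neutral amino acids, had a difference of -0.40 ± 0.10 and narrowly missed the threshold (limma adjusted p = 0.0508). Its arrays were separated, at 9.77, 9.92 and 9.95 in control against 9.40, 9.48 and 9.56 in N1ICD. Slc7a6 passed under equal array medians, without dim genes and with an intensity trend. It did not pass with cyclic loess, the mean over probe sets or a replicate block. With 1 array left out it passed in 0 of 6 fits (limma adjusted p 0.0656 to 0.176).

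Of the 5 members in the subgroup of arginine and lysine carriers 1 fell and 0 rose (limma), beside 3.27% and 3.82% of all genes. Slc7a1, the widely expressed cationic amino acid transporter, read 9.71, 9.61 and 9.60 in control and 9.17, 8.88 and 8.92 in N1ICD. The groups did not overlap and Slc7a1 fell 1.57-fold (-0.65 ± 0.11, limma adjusted p = 0.0108), with an adjusted p of 0.0507 without N1ICD replicate 2. Its relatives Slc7a2 and Slc7a3 had differences of similar size with more spread between arrays. Slc7a2 read 7.88, 8.17 and 8.17 in control and 7.15, 7.44 and 7.74 in N1ICD (-0.63 ± 0.16, limma adjusted p = 0.0594). Slc7a3 read 8.17, 8.11 and 8.56 against 7.58, 7.60 and 8.04 (-0.54 ± 0.17, limma adjusted p = 0.107). In both, all N1ICD arrays lay below all control arrays. Both passed without dim genes, with an intensity trend and with a replicate block, and Slc7a2 also under equal array medians. Neither passed with cyclic loess or the mean over probe sets. With 1 array left out, Slc7a2 passed in 1 of 6 fits (limma adjusted p up to 0.173) and Slc7a3 in 0 (up to 0.295). Slc7a4 and Slc7a14, the dissimilar members of this subgroup, had 0.39 ± 0.23 and -0.09 ± 0.10 and overlapping groups.

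**Figure D2:**
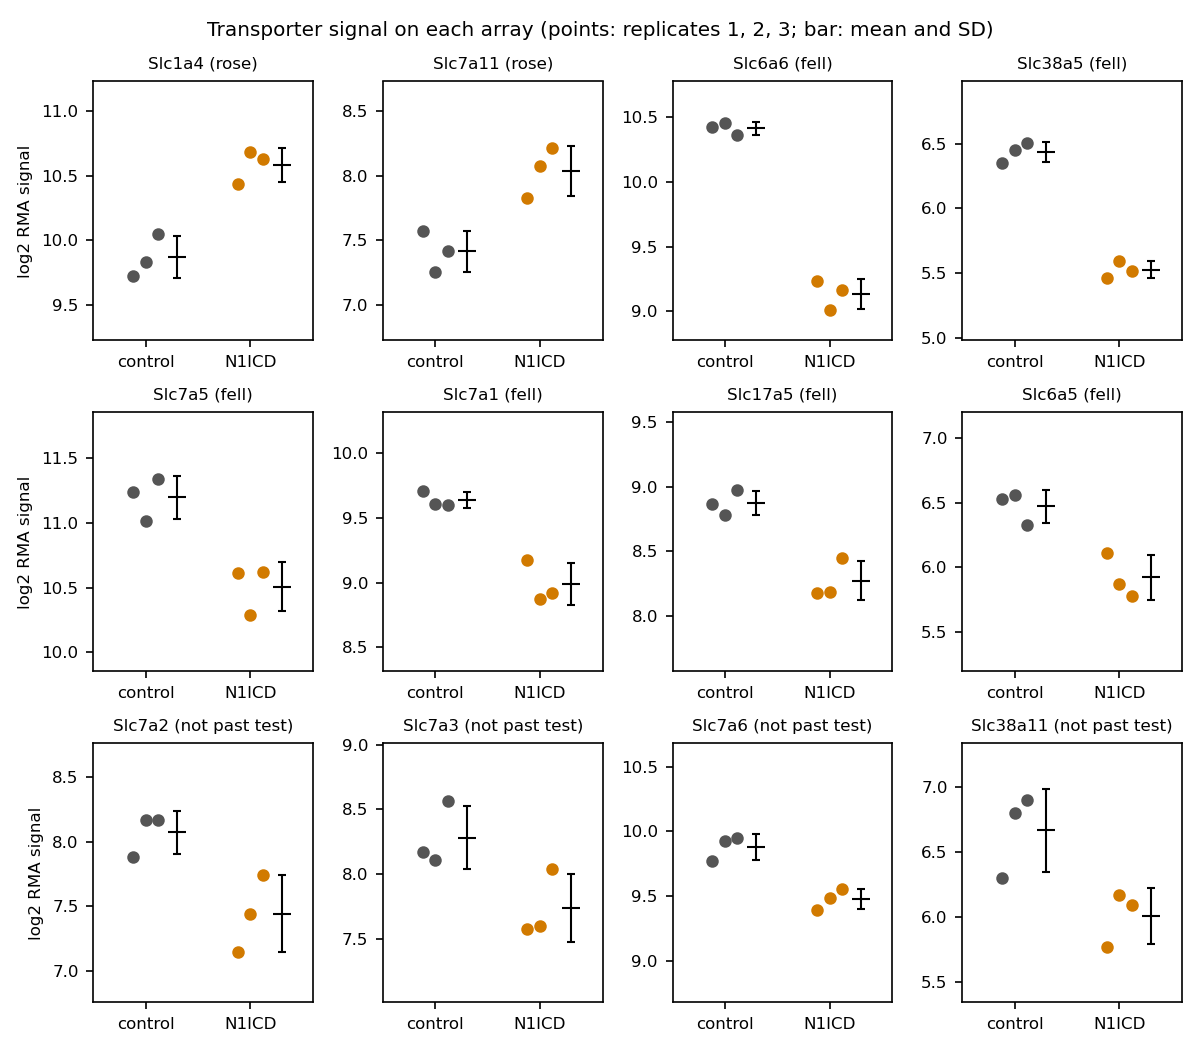
Log2 RMA signal (vertical axis, 2 log2 units in each panel) on every array for 12 transporters, with control in grey and N1ICD in orange and the mean and SD beside the points. The upper 8 panels hold the members that passed the test and the lowest row 4 members that did not; in each panel the 3 arrays of a group lie apart from those of the other group.

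Falls were also seen in a lysosomal carrier and a glycine carrier. Slc17a5 encodes sialin, which releases sialic acid from lysosomes. It read 8.86, 8.78 and 8.97 in control and 8.18, 8.19 and 8.44 in N1ICD, and fell 1.52-fold (-0.60 ± 0.11, limma adjusted p = 0.0163). The groups were separate, but the call was lost without control replicate 3 or N1ICD replicates 1 or 2 (adjusted p up to 0.072). Slc6a5, the neuronal glycine transporter GlyT2, read 6.53, 6.56 and 6.33 against 6.11, 5.87 and 5.78. It fell 1.46-fold (-0.55 ± 0.12, limma adjusted p = 0.0333), a call kept only without N1ICD replicate 1 among the 6 fits that left out an array (adjusted p up to 0.121). Slc38a11, a little-studied relative of the glutamine carriers, had -0.66 ± 0.18 and did not pass (limma adjusted p = 0.0683), with 6.30, 6.80 and 6.90 in control and 5.76, 6.17 and 6.09 in N1ICD. Its N1ICD arrays were all below the control arrays, and it passed without dim genes, with an intensity trend and with a replicate block. It did not pass under equal array medians, cyclic loess or the mean over probe sets. With 1 array left out it passed in 1 of 6 fits (limma adjusted p up to 0.199).

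The 2 rises were Slc1a4 and Slc7a11. Slc1a4 encodes ASCT1, an exchanger of serine, alanine and cysteine. Its log2 signal was 9.73, 9.84 and 10.05 in control and 10.44, 10.68 and 10.63 in N1ICD. The lowest N1ICD array lay above the highest control array, and Slc1a4 rose 1.64-fold (0.71 ± 0.12, limma adjusted p = 0.0107), with an adjusted p of 0.0512 without N1ICD replicate 2. Slc7a11 encodes xCT, the light chain that imports cystine in exchange for glutamate and so feeds glutathione synthesis. It read 7.57, 7.26 and 7.42 in control and 7.83, 8.07 and 8.21 in N1ICD, with no overlap, and rose 1.54-fold (0.62 ± 0.13, limma adjusted p = 0.0285). A second, dimmer probe set of Slc7a11 had overlapping groups and a difference of 0.15 ± 0.14 (limma adjusted p = 0.617), and the mean of both had 0.39 (adjusted p = 0.146). Leaving out any 1 of control replicates 2 and 3 and N1ICD replicates 2 and 3 ended the call at the brighter probe set (adjusted p up to 0.105).

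Promoter sequence was looked at for the members that passed the test, because the changed transporters include genes known as ATF4 targets and because N1ICD acts through RBPJ. RefSeq windows of 300 bases on GRCm38.p6, from 250 before to 50 after a start site, were given for 40 of the 57 members, with 61 windows in all, and Slc6a6 and Slc7a5 had none. Of the 40 members, 14 held the RBPJ core TGGGAA on either strand, found in 25.6% of all 32851 windows. The longer form GTGGGAA, which contains the core, was in 7 members and 6.38% of all windows. The amino acid response element TGATGNAA, bound by ATF4 together with C/EBP proteins, was in 5 members and 3.97% of all windows. The HES box CACGCG was in 3 members and 9.27% of windows, and in none of the members that passed the test and had a window. Counted by window, 18 of the 61 held the core, 9 the longer form, 6 the response element and 3 the HES box, with several windows of 1 gene among them. Both members that rose, Slc1a4 and Slc7a11, held a response element and an RBPJ core. Of the members that fell, Slc38a5 and 1 of the windows of Slc6a5 held an RBPJ core, and the windows of Slc7a1 and Slc17a5 held neither motif. A match describes letters only, and binding was not measured. The windows with a match are shown from 250 bases before to 30 bases after the start site, 5′ to 3′ on the gene's strand, with both motifs in capitals. They lie at chr11:20332684-20332963 (minus strand) for Slc1a4, chr3:50443584-50443863 (minus strand) for Slc7a11, chrX:8271131-8271410 (plus strand) for Slc38a5 and chr7:49910049-49910328 (plus strand) for Slc6a5.
Slc1a4: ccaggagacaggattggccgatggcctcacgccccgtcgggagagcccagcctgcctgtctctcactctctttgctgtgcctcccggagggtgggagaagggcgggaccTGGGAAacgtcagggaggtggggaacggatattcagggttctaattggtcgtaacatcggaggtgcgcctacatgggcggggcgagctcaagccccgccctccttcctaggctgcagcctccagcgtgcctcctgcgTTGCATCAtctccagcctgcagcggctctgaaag
Slc7a11: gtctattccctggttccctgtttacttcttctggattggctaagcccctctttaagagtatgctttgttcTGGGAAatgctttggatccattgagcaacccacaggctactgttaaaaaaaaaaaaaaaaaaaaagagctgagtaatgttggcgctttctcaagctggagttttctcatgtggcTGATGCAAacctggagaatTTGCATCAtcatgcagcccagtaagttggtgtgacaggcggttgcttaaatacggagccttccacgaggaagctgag
Slc38a5: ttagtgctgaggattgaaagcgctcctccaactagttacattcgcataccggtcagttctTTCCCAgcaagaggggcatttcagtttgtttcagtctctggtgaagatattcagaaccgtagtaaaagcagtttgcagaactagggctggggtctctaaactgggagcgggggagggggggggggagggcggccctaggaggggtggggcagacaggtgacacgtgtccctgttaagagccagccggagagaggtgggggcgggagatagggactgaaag
Slc6a5: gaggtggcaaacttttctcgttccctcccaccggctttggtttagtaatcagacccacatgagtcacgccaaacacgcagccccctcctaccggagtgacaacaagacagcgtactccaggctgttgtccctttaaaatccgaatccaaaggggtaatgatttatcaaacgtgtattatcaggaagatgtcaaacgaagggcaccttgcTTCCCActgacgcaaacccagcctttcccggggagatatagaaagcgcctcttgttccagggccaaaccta
With the start site counted as 0, the response element of Slc1a4 began at -4 and lay across the start, and those of Slc7a11 began at -66 and -47 on opposite strands. The RBPJ cores began at -141 in Slc1a4, -180 in Slc7a11, -190 in Slc38a5 and -41 in Slc6a5, the last of them in the longer form. The response elements of Slc17a1, Slc6a21 and Slc7a7 went with differences of -0.05 ± 0.12, 0.16 ± 0.12 and 0.14 ± 0.17, none of which passed the test. These genes were dim, with 6-array means of 4.81, 5.13 and 5.88, below every array median.

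Several transporters with high signal in KP1 did not pass the test. Slc38a1 and Slc38a2, the general carriers of glutamine and alanine, had differences of 0.06 ± 0.09 (95% interval -0.14 to 0.27) and -0.13 ± 0.10 (-0.35 to 0.09). Slc38a2 read 11.42, 11.48 and 11.53 in control and 11.24, 11.38 and 11.41 in N1ICD, so its arrays were just separated although the change was small. Slc1a5, the ASCT2 exchanger through which many tumour cells take up glutamine, read 7.87, 7.95 and 7.89 against 7.62, 7.76 and 7.90, with overlap. Its difference was -0.14 ± 0.10 (95% interval -0.38 to 0.09, limma adjusted p = 0.513) and -0.08 ± 0.15 at a second probe set. The creatine transporter Slc6a8 had 9.63, 9.41 and 9.37 against 9.81, 9.25 and 9.27, groups that overlapped, and its value near 0 (-0.03 ± 0.16) had no stable sign. The neutral amino acid carrier Slc6a15 (-0.21 ± 0.10) and Slc38a10 (-0.20 ± 0.10) had slightly lower, separated N1ICD arrays and did not pass (limma adjusted p = 0.322 and 0.304). Slc38a3, a glutamine carrier with the largest SE of the set, ranged from 7.52 to 8.39 in control and from 7.32 to 8.08 in N1ICD, with a difference of -0.31 ± 0.25. Slc38a9, the lysosomal arginine sensor of mTORC1, had 0.07 ± 0.10 and overlapping groups.

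The carriers that define transmitter phenotypes were mostly dim. None of the vesicular or monoamine transporters passed the test, the lysosomal carrier Slc17a5 aside. Slc17a6, Slc17a7 and Slc17a8, which load glutamate into synaptic vesicles, had mean control signals of 3.85, 4.97 and 5.56, below every array median. Their differences were 0.33 ± 0.17, 0.00 ± 0.09 and 0.01 ± 0.14, and for each of them the groups overlapped. Slc32a1, which loads GABA and glycine into vesicles, had 0.19 ± 0.09 (limma adjusted p = 0.289) with separated arrays at its brighter probe set, and -0.02 ± 0.12 at the other. The plasma membrane transporters of noradrenaline (Slc6a2), dopamine (Slc6a3) and serotonin (Slc6a4) had -0.06 ± 0.16, -0.20 ± 0.11 and -0.12 ± 0.10, from control means of 5.34, 5.65 and 4.73. Of these, Slc6a3 alone had all N1ICD arrays below the control arrays. The GABA carrier Slc6a13 read 5.10, 5.14 and 5.07 in control and 5.46, 5.72 and 5.20 in N1ICD, which did not overlap, but the difference of 0.35 ± 0.14 did not pass (limma adjusted p = 0.199). The betaine and GABA carrier Slc6a12 had 0.07 ± 0.12. Slc6a17, a carrier on synaptic vesicles that takes up neutral amino acids, had 0.29 ± 0.13 (limma adjusted p = 0.272) and overlapping arrays.

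The remaining members stayed within the range of those already given. The plasma membrane glutamate transporters Slc1a1, Slc1a6 and Slc1a7 had -0.02 ± 0.11, -0.03 ± 0.18 and 0.10 ± 0.14. Slc17a1 to Slc17a4, carriers of phosphate and urate in kidney, liver and gut, had differences between -0.22 and 0.18, none past the test. Slc17a9, which loads ATP into vesicles, had 0.03 ± 0.10. Slc7a7, Slc7a8, Slc7a9 and Slc7a10, light chains known from epithelia and brain, had differences between -0.09 and 0.14, and the lesser-known Slc7a12, Slc7a13 and Slc7a15 had 0.12 ± 0.11, -0.05 ± 0.14 and -0.07 ± 0.15. The brain proline carrier Slc6a7 had -0.08 ± 0.11, and the epithelial carriers Slc6a14, Slc6a18 and Slc6a19 and the orphan Slc6a16 had differences between -0.01 and 0.11. In the Slc38 family, Slc38a4 and Slc38a6 had 0.10 ± 0.14 and 0.04 ± 0.10, the lysosomal glutamine carrier Slc38a7 had -0.13 ± 0.12 and Slc38a8 had 0.12 ± 0.15. For all of these genes the arrays of the groups overlapped. Over the 49 members that did not pass, differences ran from -0.66 (Slc38a11) to 0.39 (Slc7a4), with SEs from 0.09 to 0.25.

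Genes around these transporters were counted in lists by pathway, none of which holds any of the 57. Their counts stand beside 3.82% of all genes that rose and 3.27% that fell. In the list of ATF4 and the amino acid response, 26 of 28 genes were measured, 22 had a lower mean in N1ICD, 8 fell and 3 rose, with a median of -0.36 beside -0.02 for all genes. The falls included Cth, which makes cysteine from cystathionine (-0.79 ± 0.16), and Shmt2, the mitochondrial serine to glycine enzyme (-0.60 ± 0.09, limma adjusted p = 0.00751). The other falls were the serine synthesis enzymes Phgdh and Psat1, the folate enzyme Mthfd2, the asparagine synthetase Asns, the glutathione-degrading enzyme Chac1 and the translation repressor Eif4ebp1. The rises were Cbs, the enzyme that makes cystathionine from homocysteine and serine, the secreted glycoprotein Stc2 (1.10 ± 0.20) and the mTORC1 inhibitor Ddit4 (1.00 ± 0.21). Cbs read 6.63, 6.55 and 6.25 in control and 10.40, 10.30 and 10.21 in N1ICD, a 14.2-fold rise (3.83 ± 0.12, limma adjusted p = 1.4e-06). So the enzymes of the same cysteine-making route, Cbs and Cth, went opposite ways, but Cth was dim. Its mean signal was 6.05 in control and 5.26 in N1ICD, below every array median. Leaving out a control array (replicate 1, 2 or 3) gave 4, 3 and 2 falls and 2, 1 and 3 rises in this list. Leaving out an N1ICD array (replicate 1, 2 or 3) gave 3, 2 and 6 falls and 3, 2 and 1 rises. Cbs and Shmt2 kept their calls in all 6 of these fits, Stc2 in 4, Ddit4 in 2 and Cth in 1.

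All 17 measured cytosolic aminoacyl-tRNA synthetases, of 20 listed, had a lower mean in N1ICD, with a median of -0.33. Of these enzymes, which join amino acids to their tRNAs, 3 fell and 14 had N1ICD arrays entirely below the control arrays, as did 15.0% of all genes and 24.4% of the genes with a mean signal above every array median. The falls were Tars1 (platform symbol Tars; -0.47 ± 0.10), Iars1 (platform symbol Iars; -0.46 ± 0.10) and Mars1 (-0.41 ± 0.10). No fit that left out an array kept the call of Mars1 (adjusted p 0.0529 to 0.16). There was 1 fall without N1ICD replicate 1, there were 2 without N1ICD replicate 3, and 0 by limma without any of the other 4 arrays, while 9 fell with an intensity trend. In the mTORC1 amino acid sensing list 1 of 25 genes fell, close to the 3.27% of all genes. It was Castor2 (-0.75 ± 0.14, limma adjusted p = 0.0172), a relative of the cytosolic arginine sensor, and the median was -0.135. With 1 array removed, Castor2 kept its call in 2 of 6 fits, those lacking control replicate 1 or N1ICD replicate 1, and the 6 other alternatives kept it too (adjusted p 0.00384 to 0.0346).

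**Figure D3:**
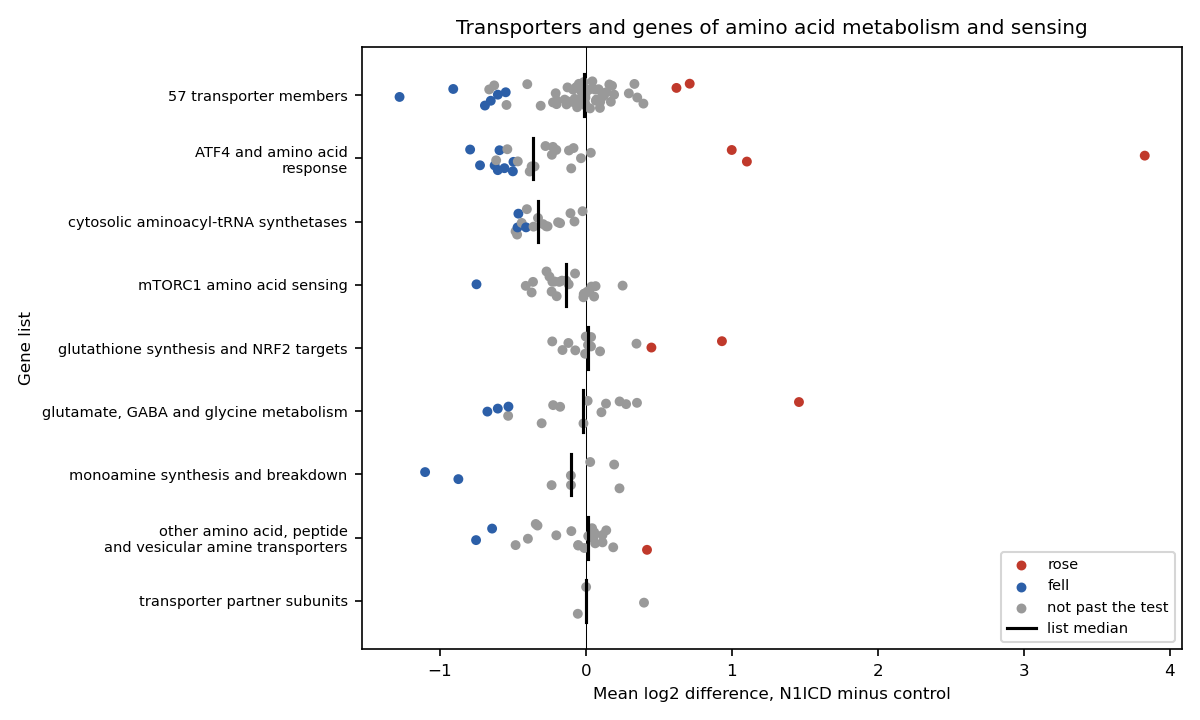
Log2 differences (N1ICD minus control, horizontal axis) of the 57 transporters and of the genes of each list, coloured by call, with the list median as a black line. The medians of the ATF4 list (-0.36) and the synthetases (-0.33) lie left of 0, and the point farthest to the right is Cbs (3.83).

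In the glutathione and NRF2 list 2 of 13 measured genes rose and 0 fell (limma), with a median of 0.02. The 11 genes of this list that did not pass had differences from -0.23 to 0.35. Nfe2l2, which encodes NRF2 itself, read 9.32, 9.17 and 9.13 against 10.15, 10.21 and 10.06 and rose 1.91-fold (0.93 ± 0.10, limma adjusted p = 0.000997). The other rise was Me1, which supplies NADPH (0.45 ± 0.10), a call that only the fit without N1ICD replicate 1 kept among those leaving out an array (adjusted p up to 0.133). Me1 also lost its call under equal array medians (adjusted p = 0.0755).

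Of 15 measured genes of glutamate, GABA and glycine metabolism 1 rose and 3 fell, with a median of -0.02. Abat, the enzyme that breaks down GABA, read 7.46, 7.42 and 7.60 against 8.75, 8.97 and 9.15 and rose 2.75-fold (1.46 ± 0.12, limma adjusted p = 0.000269). Gad1, which makes GABA, fell by 0.67 ± 0.15 on the log2 scale. It was dim, with a mean signal of 6.08 in control and 5.41 in N1ICD, below every array median. The other falls were Shmt2, also in the ATF4 list, and Shmt1 (-0.53 ± 0.10). Gad1 kept its call in 2 and Shmt1 in 1 of the 6 fits without an array. In the monoamine list 2 of 8 measured genes fell and 0 rose (limma), namely Tph1 and Th, the first enzymes of serotonin and of dopamine synthesis, with -1.10 ± 0.16 and -0.87 ± 0.11. These calls held without any 1 array, while the monoamine transporters did not pass. Mean signals of Tph1 and Th were 6.90 and 6.80 in control, above every array median. In N1ICD they were 5.80 and 5.93, below every array median.

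Among 23 amino acid, peptide and vesicular amine transporters of other families 1 rose and 2 fell, with a median of 0.02. Of all genes 3.82% rose and 3.27% fell. Without 1 array 0 to 1 rose and 1 to 3 fell. Slc25a13, the mitochondrial aspartate and glutamate exchanger, fell by 0.75 ± 0.13, and Slc43a1, a carrier of large neutral amino acids, by 0.64 ± 0.11 on the log2 scale. Slc25a13 lost its call without control replicate 3 (adjusted p = 0.0505) or N1ICD replicate 2 (0.0563), and Slc43a1 without control replicate 2 (0.0518). The rise was Slc43a3 (0.42 ± 0.10, limma adjusted p = 0.0459), a carrier of purine bases, whose call was kept only without N1ICD replicate 3 when arrays were left out, and not under equal array medians (adjusted p = 0.0675). Of the partner subunits 3 of 6 were measured and 0 changed by limma. Slc3a1, the heavy chain used by Slc7a9, had 0.40 ± 0.11 (limma adjusted p = 0.0639) with separated groups.

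Over all genes 848 rose and 726 fell, and under equal array medians 730 rose and 948 fell. All 6 measured neuroendocrine markers of 8 listed lay above every array median, with mean signals of 8.54 to 12.1. Of these Chga and Ncam1 rose and Insm1 fell. Of markers of other cell types, the 4 astrocyte genes all lay below the array medians and 0 of them changed by limma. Of 4 endothelial markers Kdr and Tek rose, and the mean of the list was 6.32 to 6.45 on control arrays and 7.32 to 7.52 on N1ICD arrays. Pecam1 and Cdh5, the defining endothelial genes, did not pass, and their 6-array means lay below the array medians. Of 5 macrophage markers Lyz2 rose, with list means of 4.92 to 4.97 on control and 4.92 to 5.02 on N1ICD arrays. Of 5 fibroblast markers Pdgfrb rose and Pdgfra fell, with list means of 6.34 to 6.49 and 6.28 to 6.35. The part of these markers in the transporter differences was not tested.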

How the data were processed

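Gene expression was measured on 6 Affymetrix arrays, 3 control and 3 N1ICD. The values the authors deposited are RMA signals, taken as log2. RMA is named without a version in the submitters' processing notes; its standard steps subtract background, quantile-normalize the arrays and summarise each probe set. Log base and genome build were not given in the sources used here. RMA compresses changes of dim probe sets. Of 41345 probe sets, 23521 had 1 gene symbol on the platform annotation, and each of 22180 genes was represented by its brightest one by the 6-array mean. R 4.3.3 with limma 3.58.1 compared the groups (two-sided, lmFit then eBayes, Benjamini-Hochberg adjustment over all genes, threshold 0.05). Differences carry the SE from limma, group means the SD (n = 3). No filter was applied. The members, lists, motifs and naming rule were chosen with earlier results of these data known. Named were the members past the threshold or with a difference of 0.5 or more, the 8 with the highest signal, Slc1a5, Slc3a2, Slc6a4, Slc17a6 and Slc32a1, and up to 4 changed genes a list (the largest difference where none changed). Other members and ATF4 list genes were named to complete their groups, after their values were seen. List symbols were matched through RefSeq identifiers. The fit was tested on simulated data. Alternatives were equal array medians, cyclic loess, leaving out dim genes, the mean over probe sets, an intensity trend with robust eBayes, a replicate block, and leaving out each array. Figures used matplotlib 3.10.9.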

Additional observations from a re-analysis of the deposited data

How the results depend on the processing

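With 1 array left out at a time, the 57 transporters had 0 to 2 rises and 2 to 6 falls, and all genes had 823 to 1230 changes, 548 to 709 rises and 275 to 585 falls. An intensity trend with robust eBayes gave 10 falling transporters, adding Slc7a2, Slc7a3, Slc7a6 and Slc38a11, and 1227 falls over all genes. Leaving out dim genes gave 1289 falls over all genes, with fewer genes tested. With the mean over probe sets 1 transporter rose, as Slc7a11 was lost. Whether the replicate numbers pair the arrays was not settled, and the main fit did not pair them. Same-numbered arrays correlated in their deviations from group means at 0.232, 0.00831 and 0.201 for replicates 1, 2 and 3. Control replicate 1 with N1ICD replicate 3 gave -0.235, and control replicate 3 with N1ICD replicate 1 gave -0.197. Control replicate 2 correlated best with N1ICD replicate 3 (0.0584), so not every array correlated best with its own number. With the replicate number as a block 1 transporter rose and 9 fell, Slc7a11 missing the threshold (adjusted p = 0.0642) and Slc7a2, Slc7a3 and Slc38a11 passing it. Among the list genes named, Mars1 (0.0511) and Slc43a3 (0.0685) lost their calls under the block. All other counts of transporters and of all genes were within 1.5 times the reported ones in the settings that kept every array. Of the 19 members followed through the alternatives, only Slc6a8 changed sign, from -0.03 to 0.050 under cyclic loess and to 0.054, 0.072 and 0.061 with control replicate 1, N1ICD replicate 2 or N1ICD replicate 3 left out (range without 1 array -0.21 to 0.072). The cause was not tested. The median difference over all genes was -0.0202, -0.0746 with equal array medians and 0.00246 with cyclic loess. Changes of dim members are limited by signal over background, which was not measured.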
